A study of Mus musculus with 7 samples.

Results

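Receptors through which sensory neurons detect stimuli and growth factors were followed in the palatal shelves of mouse embryos. The 8 genes are P2rx3, Trpv1, Pirt and Avil, which are known from sensory neurons, and Ntrk2, Ntrk3, Ngfr and Ret, which encode receptors for neurotrophins and for ligands of the GDNF family. They are 8 of the 16565 genes named on the array and were picked by gene symbol in the platform annotation. The difference between the groups was known when they were picked, so their own differences are a description and support no finding. Palatal shelves, the outgrowths from which the secondary palate is built, were taken at E13.75 from 3 wild-type C57BL/6 embryos and from 4 embryos of the genotype Adamts9+/-:bt/bt. These mutants lack 1 copy of the metalloprotease gene Adamts9 and carry bt, the belted allele of the related gene Adamts20, on both chromosomes. The wild-type embryos are described as age-matched, and the sources used here do not say whether they were littermates of the mutants. Both groups are labelled C57BL/6, neither was treated, and each embryo was read on 1 Illumina array.

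All levels are the authors' deposited log2 values, normalized between arrays. In the text a feature is a distinct row of values, and a feature was tested when its mean over the 7 arrays lay above the 40th percentile of all features, a limit of 5.86 log2 units. Upper quartiles of raw intensity ran from 230.1 to 269.8 in the wild-type arrays and from 185.0 to 216.5 in the mutant arrays, while the medians of the groups overlapped, at 74.5 to 81.4 and 70.8 to 77.6. Adamts20 lay below the limit in both groups, with means of 5.72 ± 0.08 (wild type, SD, n = 3) and 5.74 ± 0.05 (mutant, SD, n = 4), and Adamts9 was not analysed here, so neither gene gave a check of the genotypes. Vcan, which encodes versican, a proteoglycan cut by both proteases, was 5.84 ± 0.10 in wild type (n = 3) and 6.10 ± 0.06 in mutants (n = 4), and its wild-type mean lies below the limit. Of 12 palate mesenchyme markers 11 lay above the limit, as did 10 of the 10 measured markers of oral and palatal epithelium. Of 10 measured markers of the central nervous system 2 did, Otx2 and Olig1.

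As background, sensory neurons of the trigeminal ganglion send their axons into the palate during its growth. P2RX3 is a subunit of an ion channel opened by ATP, and TRPV1 is a cation channel opened by heat and capsaicin. PIRT is a small membrane protein that binds phosphoinositides and regulates TRPV1. Advillin, the product of Avil, is an actin-binding protein of the villin and gelsolin family that is concentrated in peripheral sensory neurons. TrkB and TrkC, encoded by Ntrk2 and Ntrk3, are receptor tyrosine kinases for BDNF and for neurotrophin-3. The Ngfr product binds all neurotrophins and is made by neurons, by glia of the peripheral nerves and by neural crest and mesenchymal cells. RET is the signalling receptor for GDNF family ligands and acts together with a GFRA coreceptor.

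The mutant shelves had higher levels of the sensory genes Pirt, Avil and P2rx3, by 4.16-fold, 3.02-fold and 2.73-fold, and lower levels of Ngfr, by 1.64-fold. Ret, Ntrk2 and Ntrk3 differed by 1.17-fold or less with overlapping groups, and Trpv1 lay below the limit. Over the 8 genes the median log2 difference, mutant minus wild type, was 0.18, against -0.0035 over all features tested. As a count only, 3 of the 7 genes above the limit were among the features that limma called higher at an adjusted p of 0.05, 1 was among those called lower, and 3 were called in neither direction. The same threshold was passed by 36.6% of the 10869 features tested, 16.8% as higher and 19.8% as lower. The groups did not overlap for 4 of the 7 genes, 3 higher and 1 lower in the mutants, and for 42.6% of all features tested, 19.7% higher and 22.9% lower. Because the genes were picked with this contrast known, nothing is read from these shares. In bulk tissue a change in the number of cells of a type and a change in RNA per cell cannot be told apart.

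**Figure D1:**
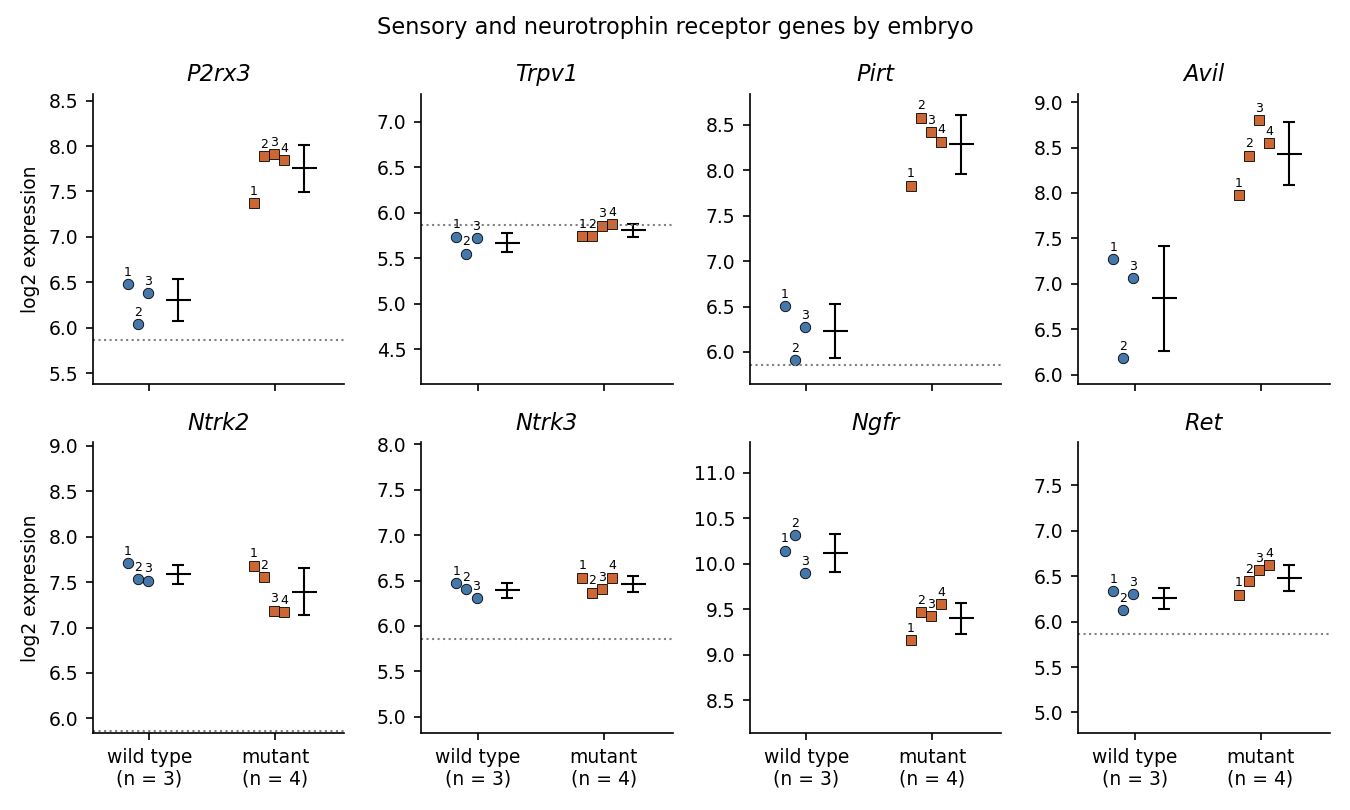
Log2 expression of the 8 genes in each embryo. Circles are the 3 wild-type and squares the 4 mutant embryos, numbered by replicate, the bars to their right are mean and SD, and the dotted line is the limit of 5.86. All panels span the same number of log2 units. The groups are apart for P2rx3, Pirt, Avil and Ngfr. For Ntrk2, Ntrk3 and Ret they overlap. Trpv1, drawn from its brighter probe, stays at or near the limit.

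Among the channels, P2rx3 read 6.48, 6.04 and 6.38 log2 units in the 3 wild-type embryos, in the order of their replicate numbers, and 7.37, 7.89, 7.91 and 7.84 in the 4 mutants, and values of other genes follow the same order. The means were 6.30 ± 0.23 (SD, n = 3) and 7.75 ± 0.26 (SD, n = 4), a log2 difference of 1.45 (SE 0.15). Every mutant embryo lay above every wild-type embryo, with a gap of 0.89 between the groups, and wild-type replicate 2 and mutant replicate 1 were the lowest of their groups. On the raw intensity scale, before normalization, P2rx3 was 102.2, 69.1 and 84.4 in wild type and 170.2, 221.3, 222.9 and 199.2 in the mutants. The 69.1 of wild-type replicate 2 lay below the median intensity of its array, 78.6. The size of the P2rx3 difference therefore depends in part on the floor of the array. Trpv1, the heat and capsaicin channel, was read by 2 probes with separate values. The brighter one read 5.74, 5.55 and 5.72 in wild type and 5.74, 5.74, 5.86 and 5.87 in the mutants. The lowest mutant value of that probe was only just above the highest wild-type value. The other probe averaged 5.68 ± 0.04 for wild type (SD, n = 3) against 5.78 ± 0.05 for mutants (SD, n = 4), with overlapping groups. Both probes had means below the limit, so neither was tested. Whether a transcript was present at a low level cannot be told from these probes.

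Pirt, the regulator of TRPV1, differed most among the 8 genes. It read 6.50, 5.91 and 6.27 in wild type and 7.83, 8.58, 8.42 and 8.31 in the mutants, with means of 6.23 ± 0.30 (SD, n = 3) and 8.29 ± 0.32 (SD, n = 4). The log2 difference was 2.06 (SE 0.19). The lowest mutant embryo lay 1.33 above the highest wild-type embryo. Wild-type replicate 2, at 5.91, was close to the limit, so the size of the difference depends on the floor of the array. Both probe IDs for Pirt carry the same values, so they are a single measurement.

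Avil, the actin-binding gene of sensory neurons, varied most within the wild-type group. It read 7.27, 6.18 and 7.06 in wild type and 7.97, 8.41, 8.80 and 8.55 in the mutants. The means were 6.84 ± 0.58 (SD, n = 3) and 8.43 ± 0.35 (SD, n = 4), with a log2 difference of 1.59 (SE 0.26). The groups did not overlap, and the gap between them was 0.70. Wild-type replicates 1 and 3 lay close to each other, and replicate 2 lay 1.09 log2 units below replicate 1. Without replicate 2 the difference was 1.27.

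The neurotrophin receptors did not move together. Ngfr, the receptor shared by all neurotrophins, was lower in each mutant embryo, at 9.16, 9.46, 9.42 and 9.56, than in each wild-type embryo, at 10.15, 10.31 and 9.90. The means were 9.40 ± 0.17 (SD, n = 4) and 10.12 ± 0.21 (SD, n = 3), a log2 difference of -0.72 (SE 0.12). Its raw intensity was 1401, 1529 and 1015 in wild type and 596.2, 663.3, 635.0 and 636.8 in the mutants. Wild-type replicate 3 lay nearest to the mutants on both scales. When the other wild-type embryos were left out, the difference was -0.50, and with arrays centred on their medians in place of the authors' normalization it was -0.98, where the median of all features shifted by -0.14.

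Ntrk2, which encodes TrkB, read 7.71, 7.53 and 7.52 in wild type and 7.68, 7.55, 7.19 and 7.17 in the mutants. Mutant replicates 1 and 2 lay within the wild-type range and replicates 3 and 4 lay below it. The log2 difference was -0.19 (SE 0.13), less than the SD of 0.26 among the mutants. It was -0.46 with median centring, so its size depended on the scaling. It was also -0.28 without mutant replicate 1, -0.12 without mutant replicate 3 and -0.11 without mutant replicate 4. Ntrk3, which encodes TrkC, read 6.47, 6.40 and 6.31 in wild type and 6.53, 6.37, 6.40 and 6.53 in the mutants. The groups overlapped and the difference was 0.065 (SE 0.071), with a value of -0.0078 under median centring and of 0.022 to 0.10 when 1 array was left out. The 3 probe IDs of Ntrk2 carry 1 set of values, and so do the 4 probe IDs of Ntrk3, although in each case they are annotated to 2 transcripts. Full-length and truncated forms of these receptors therefore cannot be told apart here.

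Ret, the receptor tyrosine kinase for GDNF family ligands, read 6.34, 6.12 and 6.30 in wild type and 6.30, 6.44, 6.56 and 6.62 in the mutants. Mutant replicate 1 lay below wild-type replicate 1, so the groups overlapped. The means were 6.26 ± 0.11 (SD, n = 3) and 6.48 ± 0.14 (SD, n = 4), with a log2 difference of 0.23 (SE 0.09). Wild-type replicate 2 was again the lowest of its group, and without it the difference was 0.16.

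Promoter sequence is shown for Avil and Ngfr, since these genes differed in opposite directions between the groups. RefSeq's table (GRCm38.p6) gave a promoter for 4 of the 8 genes, Avil, Trpv1, Ngfr and Ntrk2. Each sequence is the 250 bases before the start that the table gives for the gene, 5′ to 3′ on the gene's strand. For Avil and Ntrk2 that start lies downstream of the outermost start annotated for the gene, so the Avil window lies within the gene's annotated span and the Ntrk2 window overlaps it. Capitals mark matches to CANNTG, the E-box, and to GGGCGG, the GC box bound by SP1, on either strand.
Avil, chr10:127000459-127000708, plus strand: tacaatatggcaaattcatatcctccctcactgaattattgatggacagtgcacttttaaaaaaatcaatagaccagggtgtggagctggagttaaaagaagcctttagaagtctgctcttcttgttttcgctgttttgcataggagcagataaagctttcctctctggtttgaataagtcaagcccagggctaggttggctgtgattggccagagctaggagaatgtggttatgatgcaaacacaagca
Ngfr, chr11:95587699-95587948, minus strand: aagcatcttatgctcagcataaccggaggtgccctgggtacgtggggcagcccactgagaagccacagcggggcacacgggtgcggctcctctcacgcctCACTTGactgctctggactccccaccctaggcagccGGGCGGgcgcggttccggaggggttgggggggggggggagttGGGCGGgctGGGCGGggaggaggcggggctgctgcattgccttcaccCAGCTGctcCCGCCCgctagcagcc
The Avil window held neither motif and 1 CpG, with 42.0% G and C. The Ngfr window held 2 E-boxes, at -150 and -25, 4 GC boxes, at -114, -72, -63 and -16, and 16 CpGs, with 70.4% G and C, and no match overlapped another. Positions count back from the start, the last base before it being -1, and give the first base of the match. Over all 32851 promoter windows of this length the median was 52.4% G and C with 6 CpGs, 66.2% held an E-box and 32.7% a GC box. Also searched on both strands were ATAANTAAT, a site of the sensory neuron factor POU4F1, CTAATG, a site of ISL1, and TATAAA, the TATA box. They occur in 1.02%, 6.36% and 12.4% of all windows. Neither the Avil nor the Ngfr window held any of these letters, nor did that of Trpv1, and Ntrk2 held 1 CTAATG at -104. A match or its absence in these windows is a description of sequence only.

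Markers of sensory ganglion neurons moved with Pirt, Avil and P2rx3. Of 20 listed markers 14 were measured and 10 lay above the limit. Of these 7 rose, 0 fell and 3 did not pass (median log2 difference 1.30), against 16.8% of all features passing as higher. The list was chosen with earlier results of these data known, so this count is a description and supports no finding. Those that rose included Isl1 (2.43, SE 0.25, adjusted p = 0.000176) and Pou4f1 (1.53, SE 0.16, adjusted p = 0.00021), transcription factors of sensory neurons, and the filament gene Prph (2.91, SE 0.44, adjusted p = 0.00107). Averaged over the 10 markers, the wild-type embryos read 6.94, 6.29 and 6.96 and the mutants 7.93, 8.25, 8.32 and 8.10. The same embryos were low for several of the receptor genes. Wild-type replicate 2 was the lowest of its group for P2rx3, Pirt, Avil and Ret, for Trpv1 below the limit, and for 8 of the 10 markers. Wild-type replicate 3 was the lowest for Ntrk2, Ntrk3 and Ngfr. Mutant replicate 1 was the lowest of its group for P2rx3, Pirt, Avil, Ret and Ngfr and for 6 of the 10 markers. Mutant replicate 2 was the lowest for Trpv1 and Ntrk3, and mutant replicate 4 for Ntrk2. Tlx3, another factor of sensory neurons, is counted among the 7 with a wild-type mean below the limit. The sensory progenitor factors Neurod1, Neurog1 and Neurog2 and the factor Runx3 lay below the limit. The part of the marker shift in the receptor differences was not tested.

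Set against the marker mean of the same array, P2rx3 had a mean log2 ratio of -0.43 ± 0.17 for wild type (SD, n = 3) against -0.40 ± 0.13 for mutants (SD, n = 4), a difference of 0.029. For Avil the mean log2 ratio was 0.11 ± 0.22 (wild type, SD, n = 3) against 0.28 ± 0.22 (mutant, SD, n = 4), a difference of 0.17 that is below either SD. For Pirt it was -0.50 ± 0.17 (wild type, SD, n = 3) against 0.13 ± 0.18 (mutant, SD, n = 4), a difference of 0.63 with no overlap between the groups. Within these arrays Pirt differed more than the marker mean did, while the differences of P2rx3 and Avil lay close to that of the mean. That contrast depends on the make-up of the list, whose mean includes Eya2 (-0.088), Runx1 (0.13) and Tac1 (0.47), which did not pass. The differences of the 7 markers that rose ranged from 0.96 for Elavl4 to 3.28 for Gal. Those of Pirt (2.06), Avil (1.59) and P2rx3 (1.45) all lay within that range. For the other 5 genes the log2 ratio was lower in the mutants, from -1.20 for Ret to -2.14 for Ngfr. The marker mean itself rose by 1.42. Without the ratio, Ret, Trpv1 and Ntrk3 differed by 0.23, 0.14 and 0.065, and Ntrk2 and Ngfr by -0.19 and -0.72. Trpv1 lay below the limit. A log2 ratio of this kind compares changes only, not the levels of different probes.

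**Figure D2:**
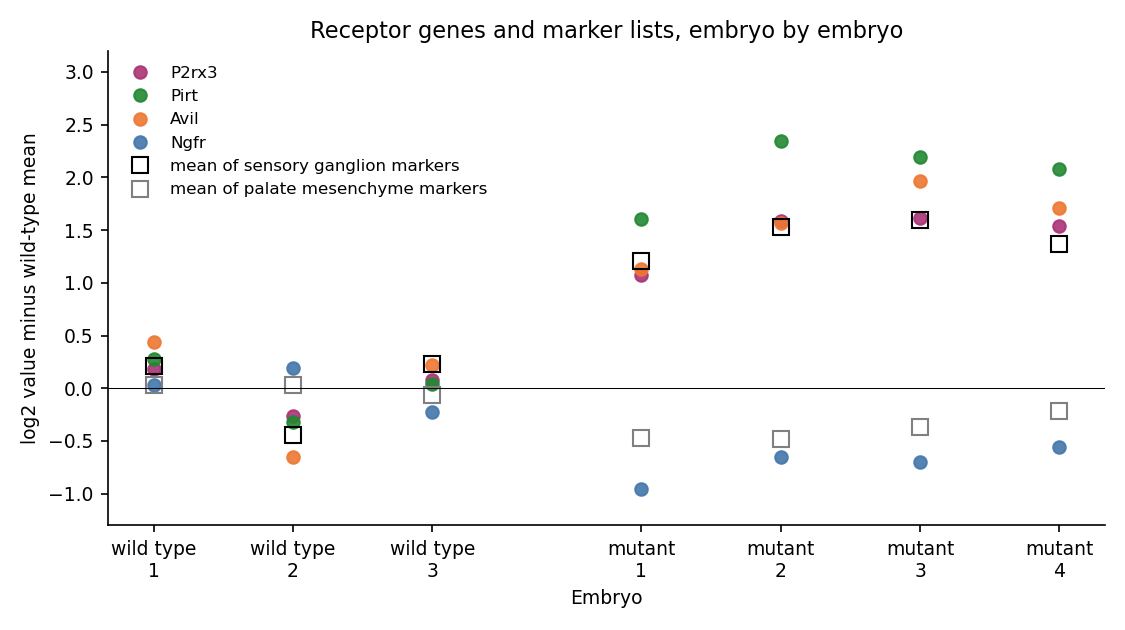
Log2 values in each embryo after subtracting the wild-type mean of the same gene or list. Filled circles are P2rx3, Pirt, Avil and Ngfr, and open squares are the means of the 10 sensory ganglion markers and the 11 palate mesenchyme markers above the limit. P2rx3, Pirt and Avil lie lowest with the sensory markers in wild-type replicate 2, and all mutant values of these genes lie above the wild-type values. Ngfr lies lower in all mutants, as does the mesenchyme mean.

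Ngfr is known from glia and mesenchyme as well as from neurons, so markers of both are given beside it. Of 12 Schwann cell and satellite glia markers 8 were measured and 5 lay above the limit, of which Gfra3 and Dhh rose, 0 fell and 3 did not pass (median 0.22). Gfra3 is also listed below as a RET coreceptor, and it did not pass by limma with median centring (0.42, adjusted p = 0.0535). Their mean was 6.22 to 6.37 in the wild-type arrays and 6.46 to 6.68 in the mutant arrays. Cdh19, Foxd3 and S100b lay below the limit. Over all features tested, 16.8% passed as higher and 19.8% as lower. Of the 11 palate mesenchyme markers above the limit, 0 rose, 4 fell and 7 did not pass (median -0.18). Those that fell were the transcription factors Twist1 (-1.25, SE 0.09, adjusted p = 6.65e-05), Msx1 (-1.28, SE 0.25, adjusted p = 0.00383), Barx1 (-0.95, SE 0.18, adjusted p = 0.00352) and Osr2 (-0.42, SE 0.10, adjusted p = 0.00993). The mesenchyme mean was 9.03 to 9.12 in wild type and 8.61 to 8.87 in the mutants. The part of either list in the Ngfr difference was not tested.

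The genes with the most similar profile over the 7 arrays were found for the 4 genes whose values spanned more than 1 log2 unit, among 10230 named features above the limit. The measure was the root mean square difference between log2 profiles after subtracting each gene's mean. Nearest to P2rx3 were Isl2 (0.055), Rgs10 (0.060) and Sybu (0.098). Nearest to Pirt were Stmn4 (0.16), Stmn3 (0.16) and Elavl2 (0.17), and nearest to Avil were Ina (0.12), Uchl1 (0.15) and Rprm (0.15). Isl2, the closest of these, read 6.53, 6.11 and 6.29 in wild type and 7.36, 7.87, 7.86 and 7.77 in the mutants, so it too was lowest in wild-type replicate 2 and mutant replicate 1. Nearest to Ngfr were Ddr2 (0.053), Kif11 (0.071) and Smarcc2 (0.074). Ddr2, the collagen receptor, read 7.18, 7.30 and 6.87 in wild type and 6.21, 6.37, 6.35 and 6.49 in the mutants. Among the 8 genes themselves, the distance between P2rx3 and Avil was 0.22, that between P2rx3 and Pirt 0.31 and that between Pirt and Avil 0.32. All such profiles share the 7 arrays and the contrast between the groups, which sets most of the likeness.

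Other genes of the same pathways were read from 7 lists of 125 genes, of which 111 were measured and 65 lay above the limit. Of these 12 rose, 11 fell and 42 did not pass by limma, with a median log2 difference of 0.029. The share that passed, 35.4%, was near the 36.6% of all features.

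Of the ligands, 4 of 6 measured genes lay above the limit and 0 passed by limma, 0 of them at an unadjusted p of 0.05 either. Artn, which encodes the GFRA3 ligand artemin, differed by -0.093 (SE 0.068, adjusted p = 0.324) and Nrtn, which encodes neurturin, by 0.071 (SE 0.082, adjusted p = 0.542). All values of both genes lay between 5.89 and 6.34 in the 7 arrays. Of 11 further receptors and coreceptors above the limit 2 rose, 3 fell and 6 did not pass. Gfra3, the RET coreceptor for artemin, read 6.93, 6.82 and 6.57 in wild type and 6.97, 7.55, 7.67 and 7.35 in the mutants. It rose by 0.61 (SE 0.16, adjusted p = 0.0164), with mutant replicate 1 just above wild-type replicate 1. Gfra3 did not pass with median centring (0.42, adjusted p = 0.0535). Sort1, which encodes sortilin, a receptor for neurotrophin precursors that acts with the Ngfr product, rose by 0.26 (SE 0.07, adjusted p = 0.0253), but its difference was -0.048 with median centring. The Sort1 call was lost without wild-type replicate 2 or 3 or mutant replicate 1 or 2 (0.22 to 0.24). Its relatives Sorcs3 and Sorcs2 fell by 0.43 (SE 0.07, adjusted p = 0.00142) and by 0.55 (SE 0.16, adjusted p = 0.0269). Nradd, a relative of Ngfr, fell by 0.19 (SE 0.06, adjusted p = 0.032), or by 0.48 with median centring (adjusted p = 0.00148). Sorcs2 no longer passed when mutant replicate 1, 3 or 4 or wild-type replicate 1 was omitted, with -0.36 (adjusted p = 0.0887) in the last case. Nradd no longer passed when mutant replicate 2, 3 or 4 or wild-type replicate 1 or 2 was omitted, with -0.17 (adjusted p = 0.118) without wild-type replicate 1.

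Adaptors and effectors that act below Trk receptors and RET moved in both directions, with 3 of 14 higher, 4 lower and 7 not passing. Dok4, an adaptor that binds RET, read 8.35, 8.26 and 8.13 in wild type and 9.20, 9.47, 9.55 and 9.38 in the mutants (2.22-fold higher, SE 0.09 on the log2 scale, adjusted p = 8.41e-05). All 4 mutants lay above all 3 wild-type embryos. Dok1, an adaptor of the same family, lay below the limit in all 3 wild-type embryos (5.57 to 5.77) and read 6.15 to 6.39 in the mutants. It entered the count of higher genes only through its mutant values, so no size is given. Rapgef1, an exchange factor that activates RAP1, was 2.23-fold lower (SE 0.07 on the log2 scale, adjusted p = 3.71e-05). The adaptor genes Sh2b1 (-0.60, SE 0.06) and Grb10 (-0.67, SE 0.07) fell with adjusted p of 0.000142 and 0.000191. The kinase gene Src read 8.45, 8.57 and 7.45 in wild type against 6.83 to 7.12 in the mutants, a fall by 1.16 (SE 0.24, adjusted p = 0.00507). Wild-type replicate 3 lay between the groups for Src, and the difference was -0.45 when the other wild-type embryos were left out.

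Other sensory channels and receptors were mostly higher where they passed, with 6 of 13 higher, 1 lower and 6 not passing (median 0.16). Of all features tested, 16.8% passed as higher and 19.8% as lower. Scn10a, which encodes a voltage-gated sodium channel of nociceptors, read 6.13, 5.81 and 5.78 in wild type and 6.78, 7.32, 7.30 and 7.31 in the mutants (2.41-fold higher, SE 0.15 on the log2 scale, adjusted p = 0.000314). Its wild-type values straddled the limit of 5.86, so the fold depends on the floor. Asic1, an acid-sensing channel gene, read 6.79, 6.44 and 6.75 in wild type and 7.57, 7.77, 7.69 and 7.56 in the mutants (1.99-fold higher, SE 0.10 on the log2 scale, adjusted p = 0.000153). The groups did not overlap for either gene. Npy1r, a neuropeptide Y receptor gene, rose by 0.69 (SE 0.11, adjusted p = 0.00143), and Ramp1, which encodes a subunit of the CGRP receptor, by 0.46 (SE 0.09, adjusted p = 0.00317). The serotonin receptor subunit gene Htr3b also entered the count only through the mutants, at 6.08 to 6.22, and lay below the limit in all 3 wild-type embryos (5.64 to 5.74). The mechanosensitive channel gene Piezo2, named after its value was seen, rose by 0.21 (SE 0.07, adjusted p = 0.0436). Tmem100, which is also known from endothelium, fell by 0.41 (SE 0.10, adjusted p = 0.0128). Its difference was -0.71 with median centring and -0.24 (adjusted p = 0.176) with wild-type replicate 3 alone. Of 9 measured endothelium markers, all above the limit, 5 fell and 4 did not pass (median -0.51), against 19.8% of all features passing as lower. Their mean was 8.04 to 8.28 in wild type and 7.58 to 7.80 in the mutants.

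**Figure D3:**
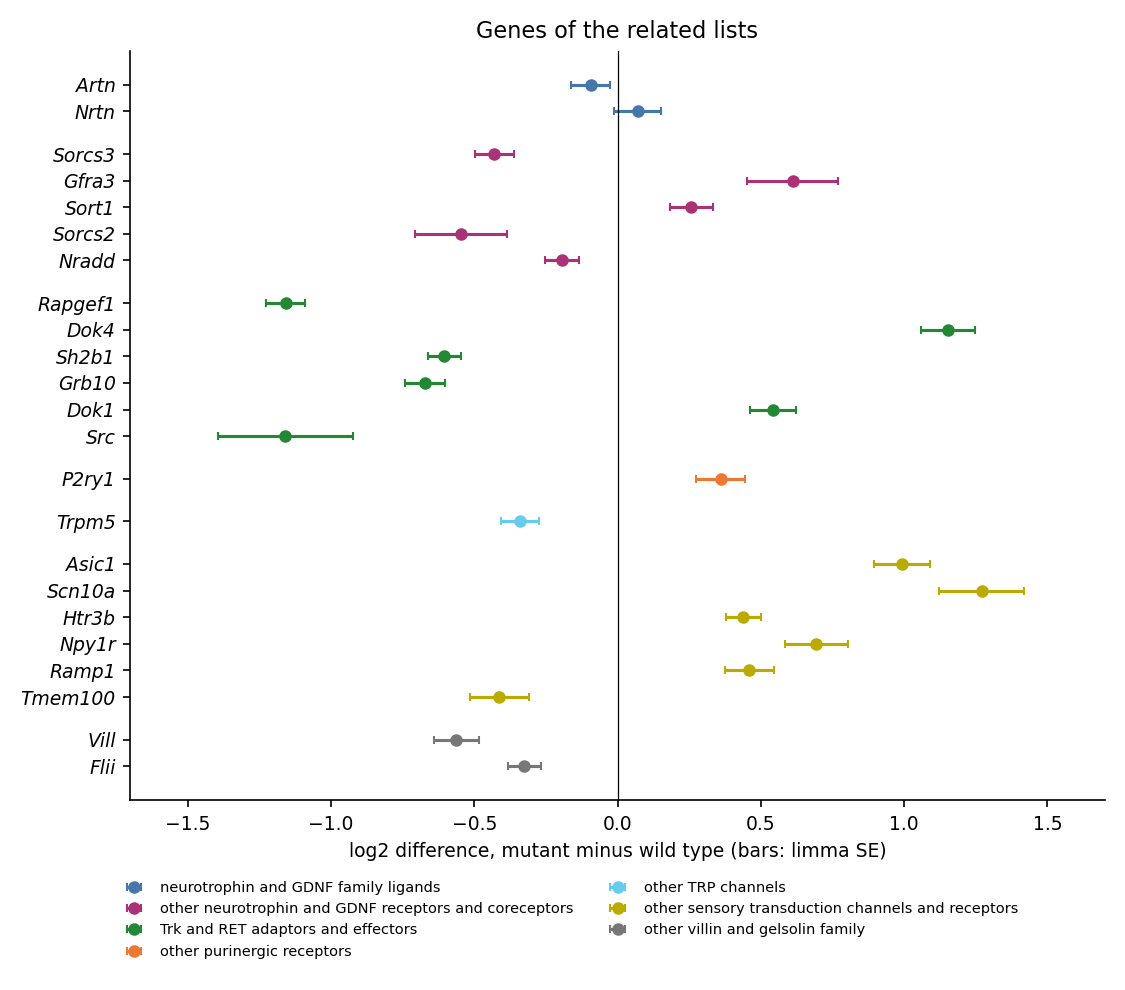
Log2 difference, mutant minus wild type, for the named genes of the 7 related lists, with limma's SE as bars. Dok1 and Htr3b lie below the limit in wild type, so their sizes depend on the floor. Colours mark the lists. Scn10a and Dok4 lie farthest to the right and Rapgef1 and Src farthest to the left, and both ligands lie near 0.

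The nearest relatives of P2rx3 and Avil mostly did not share their rise, and those of Trpv1, which was itself not tested, are given beside them. Of 8 other purinergic receptors above the limit 1 rose and 7 did not pass. The gene that rose was the ADP receptor gene P2ry1 (0.36, SE 0.09, adjusted p = 0.0106), which did not pass with median centring (0.13, adjusted p = 0.382). P2rx2, whose product can pair with P2RX3 in a channel, differed by -0.13 (SE 0.09, adjusted p = 0.292) and lay between 5.74 and 6.10. Of 10 other TRP channels 1 fell and 9 did not pass. The irritant channel Trpa1 and the cold channel Trpm8 were among 12 below the limit. The gene that fell was Trpm5, a channel of taste transduction (-0.34, SE 0.07, adjusted p = 0.00426). Of 5 other members of the villin and gelsolin family 2 fell, Vill (-0.56, SE 0.08, adjusted p = 0.000751) and Flii (-0.33, SE 0.06, adjusted p = 0.00267, or -0.59 with median centring), 0 rose and 3 did not pass.

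**Figure D4:**
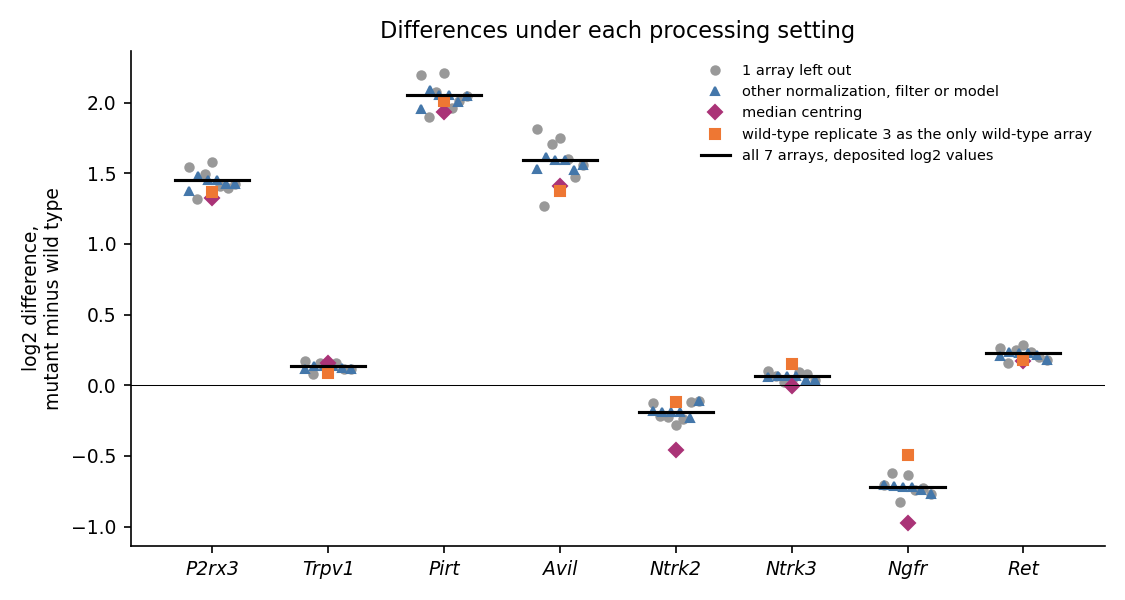
Log2 difference, mutant minus wild type, of each of the 8 genes under 16 settings. The line is the value with all 7 arrays and the deposited log2 values, circles leave out 1 array, and triangles, diamonds and squares are other normalizations, filters, models and array choices. P2rx3, Pirt and Avil stay above 1 and Ngfr stays below 0 in all 16, and Ntrk3 lies close to 0. The filter settings cannot change a gene's difference. The replicate block gives the same differences as leaving out mutant replicate 4.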

How the data were processed

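RNA was purified with RNeasy columns and labelled with biotin by the Illumina TotalPrep kit, per the labels' protocols. The authors deposited a linear intensity per probe ID for each array, with scanner software and background step not given in the sources used here, and a log2 table of the series. Each log2 column shares its minimum and maximum and keeps the order of its array's intensities (Spearman 1), and differs from log2 quantile-normalized intensity by at most 0.11, so scale and direction are known and the exact method is not.

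The 25695 probe IDs held 18116 distinct rows, used as features. The platform annotation gives 23976 probe IDs 1 symbol, 0 several and 1719 none, and 23960 matched the GRCm38 gene table. A gene with several features was read by that of highest mean. The log2 values were fitted with limma 3.58.1 in R 4.3.3 (lmFit and eBayes, 2 groups, two-sided), with Benjamini-Hochberg adjustment over 10869 features, and the fit was tested on simulated data. The design text assigns 1 embryo to each array, and precision is limited by having 7 arrays.

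Members and lists were chosen with earlier results of these data known. Named genes were the members, up to 6 genes past the threshold by smallest p per related list (or the 2 with the smallest p), marker examples, and the 3 nearest profiles. Further genes were named with their values in view, among them Piezo2, P2rx2, Trpa1, Trpm8 and the marker genes. The alternatives were normexp background correction (offset 50) with quantile normalization, quantile normalization alone, median centring, no or a stricter filter, array weights, a replicate block and the omission of arrays.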

Additional observations from a re-analysis of the deposited data

Results flagged for a closer look

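In a group of 4 embryos, the gap between an extreme value and its nearest neighbour was compared with the range of the group, and 3 genes exceeded Dixon's critical value. Among the 31 genes examined, chance alone flags about 1 group in 20. For P2rx3, mutant replicate 1 (7.37) stood below the other mutants (7.84 to 7.91), with a ratio of 0.865. For Scn10a the same embryo stood low (6.78 against 7.30 to 7.32), with a ratio of 0.962. For Dok1, mutant replicate 4 stood high (6.39 against 6.15 to 6.19), with a ratio of 0.856. In all 3 genes the mutant values remained above every wild-type value.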

How the results depend on the processing

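Over 15 alternatives, P2rx3 ranged from 1.32 to 1.58 and Pirt from 1.90 to 2.21 log2 units. Avil ranged from 1.27 to 1.81 and Ngfr from -0.98 to -0.50. The filter settings could not change these differences, and the replicate block gave the same ones as omitting mutant replicate 4. The median over the 8 genes was 0.12 to 0.22 when 1 array was left out, 0.16 with median centring and 0.15 with the replicate block. Features passing numbered 2928 to 4338 when 1 array was left out, against 3977 with all, and related-list genes passing 19 to 25, against 23. When wild-type replicate 3 alone stood for its group, and its spread was assumed equal to that of the mutants, 1747 features and 15 related-list genes passed, Artn read 0.029 and Nrtn -0.037, and the calls of Flii (-0.27), Tmem100 (-0.24), Trpm5 (-0.26), Nradd (-0.13), Sorcs2 (-0.33) and Sort1 (0.29) were lost. Fewer samples enter that fit. With median centring 826 features passed as higher and 3931 as lower, against 1829 and 2148, and Sort1 read -0.048. The cause was not tested. Same-numbered embryos did not deviate together (correlations -0.20, -0.16 and 0.06 for replicates 1 to 3, against -0.10 to 0.21 for differently numbered ones). With so few arrays and deviations taken within each group, this check cannot exclude that the numbers pair the samples. With the replicate block 2840 features and 18 related-list genes passed, and the calls of Gfra3 (0.62), Sort1 (0.28), Sorcs2 (-0.52) and Nradd (-0.20) were lost with differences close to those without it. Mutant replicate 4 has no partner in the block. Among values of named related genes under alternatives 309 kept direction and side of the threshold, 25 lost the call and 3 changed sign. No detection p was available, so values near 5.86 have only an approximate floor.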

Other observations

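Wild-type replicate 2 was low for some marker lists other than the sensory one, but had the highest wild-type mean for epithelium (8.48) and endothelium (8.28). The mean over 8 skeletal muscle markers was 7.42 in wild-type replicate 2, against 8.37 and 8.49 in wild-type replicates 1 and 3 and 8.34 to 8.85 in the mutants. For cartilage and bone markers its mean was 7.90, against 8.49 and 8.41 in wild-type replicates 1 and 3 and 8.14 to 8.50 in the mutants. Over 4 autonomic neuron markers above the limit its mean was 6.44, against 6.97 and 6.71 in the other wild-type embryos and 6.95 to 7.14 in the mutants. Of these 4 markers 1 rose, 0 fell and 3 did not pass. Th, which encodes tyrosine hydroxylase, the enzyme that starts catecholamine synthesis and is also made by some sensory neurons, read 6.46, 5.84 and 6.08 in wild type and 7.24, 7.68, 7.54 and 7.58 in the mutants (log2 difference 1.39, SE 0.15, adjusted p = 0.000225). Phox2a, an autonomic factor, differed by -0.26 (adjusted p = 0.296), and Dbh, Hand2, Chat and Slc18a3 lay below the limit. Over 10 epithelium markers the mean was 8.19 to 8.48 in wild type and 8.05 to 8.50 in the mutants.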
